A study of Mus musculus with 4 samples.

Results

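Human small-cell lung cancer (SCLC) is divided into subtypes by the transcription factor that marks the lineage state of the cells. *Neurod1*, *Pou2f3* and *Atoh1* encode 3 of these factors, and chromatin accessibility around them was read in 4 libraries of assay for transposase-accessible chromatin with sequencing (ATAC-seq), in which a transposase inserts into open DNA. The members were taken by name, 3 of 21938 protein-coding genes, and their peaks were all those in the gene body with 100 kb on each side, here called the window of the gene. The windows held 154 of 489558 peaks, with 24 and 52 in SMC lines 1 and 2 and 39 in each of non-SMC lines 1 and 2, and these merged into 116 of 357570 regions.

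The lines came from lung tumors of the *RP* mouse model, in which *Rb1* and *Trp53* are deleted by Cre from an adenovirus with the CMV promoter given into the trachea, so the recombined cells were not restricted to a single lung cell type. SMC are NCAM hi CD44 lo/- cells that grow in suspension, and non-SMC are NCAM lo CD44 hi cells that grow adherent. All 4 were untreated cell lines of a mixed background (C57Bl/6, Balb-c and S129) and carried both deletions, the non-SMC lines included. There were 2 lines of each type with 1 library per line, so the spread between lines includes both the line and its preparation, and no two-sided exact permutation test of 2 against 2 can go below p = 0.333. The types were therefore not tested against each other, and each difference stands beside the pooled SD of the lines within a type.

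NEUROD1 is a proneural basic helix-loop-helix (bHLH) factor that binds E-box motifs and drives neuronal and endocrine differentiation, and it marks a neuroendocrine subtype of SCLC. ATOH1 is another proneural bHLH factor, required for inner ear hair cells, cerebellar granule neurons and the secretory cells of the gut, and it is found in a small group of neuroendocrine SCLC. POU2F3 is an octamer-binding POU factor required for tuft cells, the chemosensory cells of the airway and gut, and it marks an SCLC subtype that lacks neuroendocrine genes.

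The sequences below were read from GRCm38, the assembly of mm10, as 201 bases centred on the summit of a peak and on the strand of the gene, and they carry the contrasts described afterwards. Capitals mark matches on either strand to the searched motifs, which were the E-boxes CAGATG and CAGCTG, the octamer ATGCAAAT, the AP-1 motif TGANTCA, the TEAD motif GGAATG and the NFI palindrome. The 3 *Neurod1* sequences are its promoter at chr2:79456765-79456965 with a TEAD match, the highest non-SMC-only region at chr2:79511146-79511346 and a further non-SMC-only region at chr2:79518249-79518449 with an E-box and an AP-1 match. The last of these was chosen after its values were seen.
Neurod1 promoter (minus strand): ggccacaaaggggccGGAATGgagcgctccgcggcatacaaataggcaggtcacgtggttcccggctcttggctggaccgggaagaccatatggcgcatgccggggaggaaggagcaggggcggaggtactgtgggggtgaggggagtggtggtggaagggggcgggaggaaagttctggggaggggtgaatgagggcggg
Neurod1 non-SMC-only, 54.5 kb upstream (minus strand): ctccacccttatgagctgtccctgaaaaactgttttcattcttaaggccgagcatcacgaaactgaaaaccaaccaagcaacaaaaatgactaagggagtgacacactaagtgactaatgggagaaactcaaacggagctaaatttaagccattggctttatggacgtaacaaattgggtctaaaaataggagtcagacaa
Neurod1 non-SMC-only, 61.6 kb upstream (minus strand): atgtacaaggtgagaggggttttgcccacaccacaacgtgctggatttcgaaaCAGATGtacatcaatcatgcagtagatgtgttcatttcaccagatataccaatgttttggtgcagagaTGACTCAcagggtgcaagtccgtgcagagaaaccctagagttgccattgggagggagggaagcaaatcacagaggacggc

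For *Pou2f3* the sequences are the highest SMC-only region, at chr9:43284659-43284859 with an E-box, and the highest non-SMC-only region, at chr9:43262018-43262218 with 2 AP-1 matches. For *Atoh1* it is the peak upstream of the TSS (transcription start site), at chr6:64727850-64728050, without a match to any of the 6 motifs.
Pou2f3 SMC-only, 74.4 kb upstream (minus strand): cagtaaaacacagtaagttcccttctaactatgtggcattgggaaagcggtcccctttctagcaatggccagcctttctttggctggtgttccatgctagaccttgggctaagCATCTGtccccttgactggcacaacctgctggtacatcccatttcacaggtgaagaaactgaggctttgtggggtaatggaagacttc
Pou2f3 non-SMC-only, 51.7 kb upstream (minus strand): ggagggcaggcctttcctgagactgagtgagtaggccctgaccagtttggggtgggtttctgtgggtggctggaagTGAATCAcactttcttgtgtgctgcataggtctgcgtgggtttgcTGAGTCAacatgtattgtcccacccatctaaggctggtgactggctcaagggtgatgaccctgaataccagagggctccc
Atoh1 promoter peak of SMC line 2 (plus strand): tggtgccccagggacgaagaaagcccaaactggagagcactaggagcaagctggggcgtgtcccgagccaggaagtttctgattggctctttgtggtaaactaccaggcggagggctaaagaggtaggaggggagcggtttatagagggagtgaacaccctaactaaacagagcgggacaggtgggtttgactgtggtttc

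The authors called peaks in each library on its own, and each peak had a fold enrichment of its summit pileup over the local background with a −log10 q. These values depend on the depth of the library, so they were ranked only within a list, and the percentile given with a fold enrichment is its rank among all peaks of that list. A strong peak has a −log10 q of at least 5. Weaker peaks were kept whatever their q, so peak counts and patterns include peaks that q does not separate from background. The lists held 91118 to 154039 peaks, of which 13062 (SMC line 1) to 43984 (non-SMC line 1) were strong. The lowest background in a list, a guide to depth, was 0.456 and 1.54 fragments for SMC lines 1 and 2 and 1.49 and 0.639 for non-SMC lines 1 and 2. The type labels were checked at promoters, the 6 kb centred on the TSS. The *Cd44* promoter had a strong peak in both non-SMC lines and no strong peak in SMC, and *Epcam* had the opposite pattern. *Ncam1* had strong promoter peaks in all 4 libraries, so its promoter did not separate the types.

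**Figure D1:**
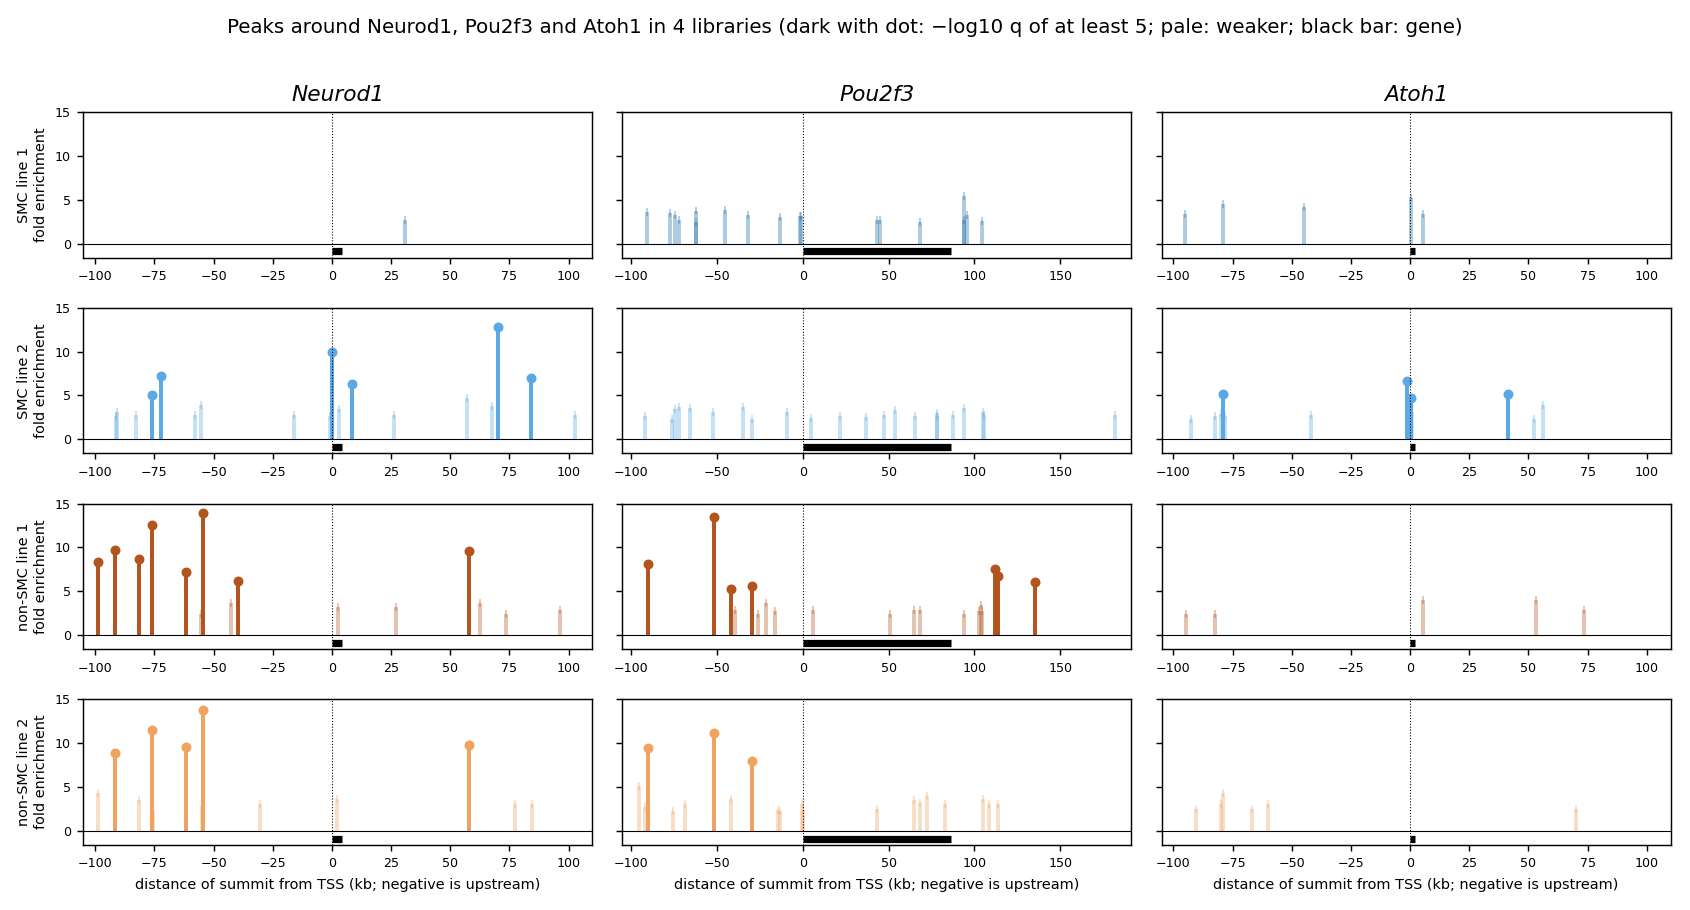
Fold enrichment of each peak (linear axis) against the distance of its summit from the TSS in kb, with a row for each library and a column for each gene; dark bars with dots are strong peaks, pale bars weaker ones and the black bar is the gene. SMC line 1 has no strong peak in any of the 3 windows, and the strong peaks of the non-SMC lines lie away from the TSS.

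At *Neurod1* the gene start had a peak in 1 SMC line alone, and a series of distal regions had peaks in the non-SMC lines. *Neurod1* lies at chr2:79452521-79456751 on the minus strand with 1 annotated transcript. A peak covered its TSS in SMC line 2 alone, with a fold enrichment of 9.94, at the 97.4th percentile of the list, a −log10 q of 24.2 and a pileup of 36 fragments, and its summit was 114 bp upstream of the TSS. The other 3 libraries had no peak there. Libraries were made from bulk cells, so a smaller share of cells with an open site and a less open site per cell cannot be told apart. Across all protein-coding genes, 3.24% of TSSs were covered by a peak in SMC line 2 alone, and 2.69% by a strong one. *Cerkl*, a ceramide kinase-like gene on the same strand, has an annotated start 34 bp upstream of that of *Neurod1*, so the peak cannot be assigned between the 2 genes.

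The height of the *Neurod1* TSS peak was set against the depth of SMC line 1. Scaled by the ratio of the 2 genome backgrounds, the pileup of 36 in SMC line 2 corresponded to 10.7 in SMC line 1, where the lowest listed pileup was 3. The same scaling put all 6 strong *Neurod1* peaks of SMC line 2 at 3.86 to 10.7, and none of them overlapped a peak of SMC line 1. Every strong peak of the 3 windows, scaled in this way, was above the lowest listed pileup of the other libraries. The limit for a strong peak all but fixed this outcome in advance, so it says nothing on depth. The share of all strong SMC line 2 peaks without a peak in SMC line 1 was not computed. The part of depth in the missing peaks was not tested.

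Weak peaks inside *Neurod1* were present in every library but SMC line 1. Their summits were 2353 to 2823 bp downstream of the TSS, near the start of the lincRNA *Gm26755*, and the fold enrichments were 3.42 for SMC line 2 and 3.22 and 3.66 for non-SMC lines 1 and 2, none of them strong. With them, the promoter of *Neurod1* counted as having a peak in every library but SMC line 1, a pattern of 4.33% of promoters. With strong peaks only, it had a peak in SMC line 2 alone, as did 3.37% of promoters, and with a promoter of 2 kb the same pattern was found.

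**Figure D2:**
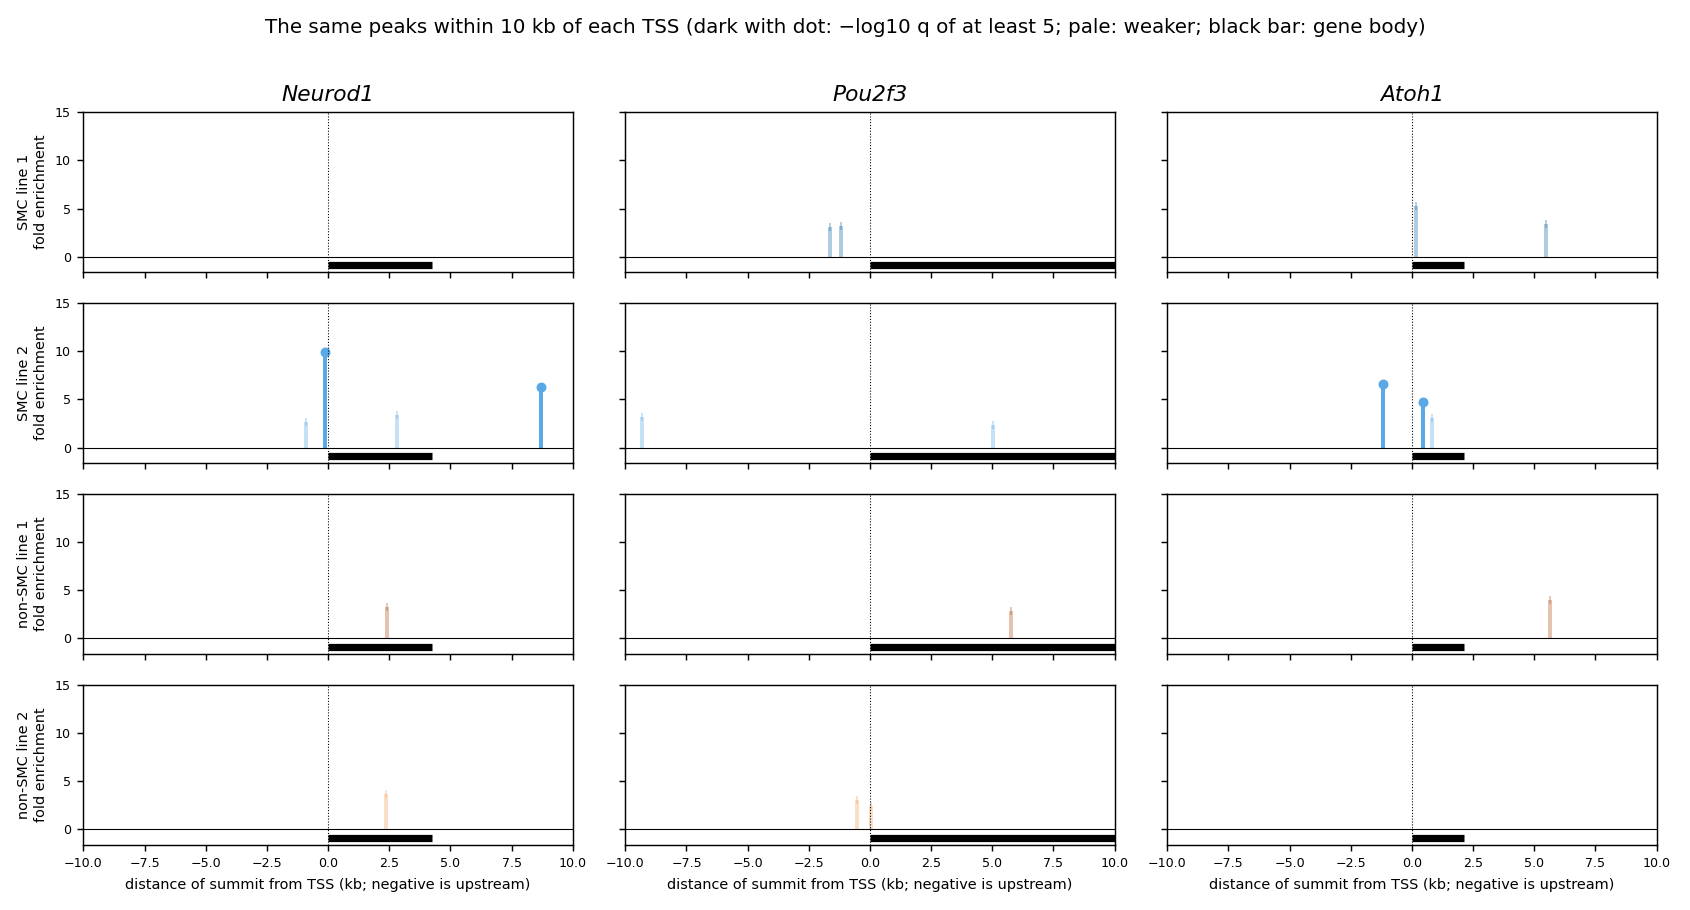
The same fold enrichments within 10 kb of each TSS, with distances in kb along the gene's strand, a row for each library and a column for each gene. The *Neurod1* TSS has a peak in SMC line 2 alone, the *Atoh1* TSS in both SMC lines, and *Pou2f3* has pale peaks only, in every library.

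The whole *Neurod1* window held 1 and 18 peaks of SMC lines 1 and 2, and 15 and 13 of non-SMC lines 1 and 2. Per 100000 peaks kept in each list these were 1.10 and 11.7, and 12.9 and 10.1. SMC line 1 stood apart from the other 3 libraries, and the value of SMC line 2 lay between those of the non-SMC lines. The SMC mean was 6.40 ± 7.49 (SD, n = 2) and the non-SMC mean 11.5 ± 2.01 (SD, n = 2), a difference of −5.13 that was smaller than the pooled SD of 5.49. It was 0.167 without SMC line 1 and −10.4 without SMC line 2. The single peak of SMC line 1, 31.0 kb downstream in an intron of *Cerkl*, had a pileup of 3 and a −log10 q of 0.469. Of all gene windows, 7.94% had fewer peaks in SMC line 1 than *Neurod1* and 12.0% had as many or fewer, against 36.9% with fewer in SMC line 2. Windows of long genes hold more bases, and *Neurod1* with its flanks spans 204 kb.

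The strong *Neurod1* peaks numbered 0 and 6 for SMC lines 1 and 2, and 8 and 5 for non-SMC lines 1 and 2. No strong peak in SMC line 1 with at least 1 in each other library was found in 7.02% of all gene windows. The strong peaks merged into 13 regions, and SMC line 2 shared 1 of them with the non-SMC lines. They were strong in SMC line 2 alone at 5 regions, in both non-SMC lines alone at 4, in non-SMC line 1 alone at 3, and in all but SMC line 1 at 1 region.

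Of the 34 regions in the *Neurod1* window, 0 were SMC-only (found in SMC lines 1 and 2 but not in non-SMC), against 4.37% of all merged regions, and 5 (14.7%) were non-SMC-only, against 7.33% of all merged regions. A peak in 1 library alone made up 25 regions (73.5%), against 76.9% of all, and no region had a peak in all 4 libraries, a pattern of 3.81% of all. All 5 non-SMC-only regions lay upstream of *Neurod1* and outside protein-coding genes.

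The highest of them was 54.5 kb upstream. Its fold enrichments were 13.9 and 13.8 for non-SMC lines 1 and 2, at the 97.1th and 99.1th percentiles, with −log10 q of 34.2 and 23.5. It was the highest peak of the window in both non-SMC lines. The regions 61.6 and 91.7 kb upstream were also strong in both non-SMC lines, with fold enrichments of 7.24 and 9.54 at the first and 9.72 and 8.87 at the second in non-SMC lines 1 and 2. Those 81.6 and 98.9 kb upstream were strong in non-SMC line 1 alone. The regions 91.7 and 98.9 kb upstream were nearer to the start of *Itprid2* (86.9 and 79.7 kb away) than to that of *Neurod1*.

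Most strong distal peaks of SMC line 2 were at other places. It had strong peaks 84.2 and 8.68 kb downstream and 72.0 kb upstream, with fold enrichments of 6.95, 6.30 and 7.17, and no other library had a peak at any of these 3 places. The highest peak of SMC line 2 in the window was a further distal one, with a fold enrichment of 12.8, at the 99.2th percentile, and a −log10 q of 29.5, and it too was in that library alone. The exception was a region 76.1 kb upstream, which was strong in SMC line 2 (fold enrichment 5.09) and non-SMC lines 1 and 2 (12.6 and 11.5). A region 57.7 kb downstream was strong in both non-SMC lines (9.59 and 9.76) and held a weaker peak in SMC line 2 (4.73). Next to the highest non-SMC-only region, a region 55.1 kb upstream had only weak peaks. They were in SMC line 2 (3.94) and non-SMC lines 1 and 2 (2.43 and 2.76). A weak peak of SMC line 2 alone, 91.3 kb upstream, lay beside the non-SMC-only region 91.7 kb upstream.

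**Figure D3:**
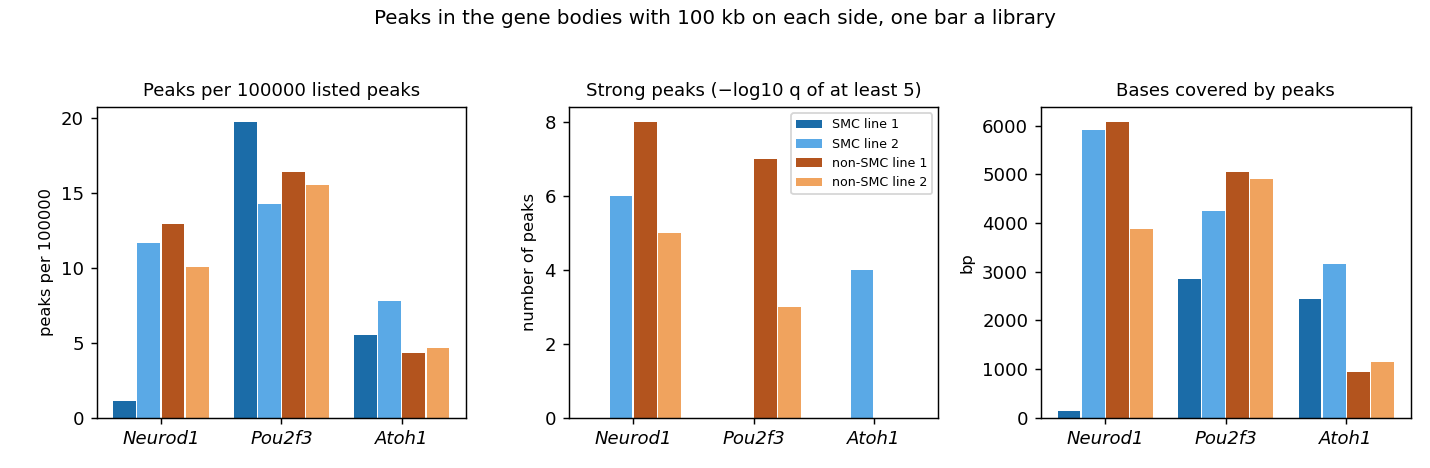
Peaks per 100000 listed peaks, strong peaks and bases covered by peaks in the window of each gene, with 1 bar for each library and no error bars, since each line had 1 library. SMC line 1 is lowest at *Neurod1*, only the non-SMC lines have strong peaks at *Pou2f3*, and SMC line 2 alone has them at *Atoh1*.

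At *Atoh1* a peak lay over the gene start in both SMC lines, and the non-SMC lines had none there. *Atoh1* lies at chr6:64729125-64731245 on the plus strand with 1 annotated transcript. The SMC-only region over the *Atoh1* TSS was at chr6:64728710-64730097. In SMC line 1 its peak had a fold enrichment of 5.24, at the 82.1th percentile, a −log10 q of 3.87 and a pileup of 7, with the summit 169 bp inside the gene. In SMC line 2 it had 4.71, at the 82.8th percentile, with a −log10 q of 5.05, a pileup of 14 and the summit 460 bp inside the gene. Both non-SMC lines had no peak in the promoter.

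An SMC-only promoter was found for 3.08% of all genes, and a TSS covered in both SMC lines alone for 2.29%. SMC line 2 had a further strong peak 1175 bp upstream of *Atoh1*, with a fold enrichment of 6.60, at the 91.4th percentile, and a −log10 q of 9.87. With strong peaks only, the *Atoh1* promoter was called in SMC line 2 alone, since the peak of SMC line 1 was below the limit.

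The *Atoh1* window had 5 and 12 peaks of SMC lines 1 and 2, and 5 and 6 of non-SMC lines 1 and 2. Per 100000 peaks these were 5.49 and 7.79, and 4.32 and 4.66, so both SMC lines were above both non-SMC lines, as in 20.2% of all gene windows. The SMC mean of 6.64 ± 1.63 (SD, n = 2) exceeded the non-SMC mean of 4.49 ± 0.244 (SD, n = 2) by 2.15, more than the pooled SD of 1.16. The difference was 3.31 without SMC line 1 and 1.00 without SMC line 2. The bases covered by peaks, not scaled to the size of the list, were 2438 and 3169 for SMC lines 1 and 2 and 944 and 1149 for non-SMC lines 1 and 2. In the *Pou2f3* window they went the other way, with 2848 and 4255 against 5044 and 4901. In the *Neurod1* window the types overlapped, with 136 and 5906 against 6083 and 3879. Covered bases follow peak width as well as peak number. The median widths over the whole lists were 180 and 178 bp for SMC lines 1 and 2 and 246 and 203 bp for non-SMC lines 1 and 2. The part of peak width was not tested, and the share of gene windows with such a separation was not computed.

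The strong *Atoh1* peaks, 4 in all, were in SMC line 2. The median gene window held 2 and 3 strong peaks of SMC lines 1 and 2, and 6 and 4 of non-SMC lines 1 and 2. The share of gene windows with strong peaks in SMC line 2 alone was not computed. Beside the 2 at the promoter, 1 lay 41.2 kb downstream, with a fold enrichment of 5.12. The fourth was a distal peak with a fold enrichment of 5.22, and it was the 1 strong region of the window that non-SMC line 2 (4.27) shared, beside SMC line 1 (4.57), with weak peaks. A region 5.65 kb downstream had weak peaks in SMC line 1 (3.43) and non-SMC line 1 (4.02), where the latter value was tied for the highest in that library with a peak 53.3 kb downstream. Of the 21 regions, 1 (4.76%) was SMC-only, near the 4.37% of all merged regions, 0 were non-SMC-only, against 7.33%, and 16 (76.2%) were in 1 library alone, against 76.9%.

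At *Pou2f3* the gene itself had no strong peak in any library, while distal regions were strong in the non-SMC lines alone. *Pou2f3* lies at chr9:43123939-43210369 on the minus strand with 3 annotated transcripts. Its promoter had 2 weak peaks in SMC line 1, 1202 and 1653 bp upstream of the TSS (fold enrichments 3.15 and 3.12), and 2 in non-SMC line 2, 60 bp inside the gene and 520 bp upstream (2.40 and 3.05). These peaks had pileups of 3 or 4 fragments. SMC line 2 and non-SMC line 1 had no promoter peak, and this pattern was found at 0.725% of promoters. A TSS covered in non-SMC line 2 alone, as here, was found at 1.79% of genes. With strong peaks only, the promoter was without a peak in every library, as were 43.5% of promoters.

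None of the 16 regions in introns of *Pou2f3* was strong. They included a region with weak peaks in every library but SMC line 2, about 68.3 kb into the gene, and a weak non-SMC-only region 65.1 kb into it. When the starts of all 3 transcripts were used as promoters, every library had a promoter peak, all of them weak.

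The *Pou2f3* window had 18 and 22 peaks of SMC lines 1 and 2 (19.8 and 14.3 per 100000 peaks), and 19 and 20 of non-SMC lines 1 and 2 (16.4 and 15.5). The values of the types overlapped. The SMC mean of 17.0 ± 3.87 (SD, n = 2) and the non-SMC mean of 16.0 ± 0.611 (SD, n = 2) differed by 1.06 with a pooled SD of 2.77. This was −1.68 without SMC line 1 and 3.80 without SMC line 2, and −1.32 with flanks of 50 kb. The strong peaks of *Pou2f3* did not overlap between the types, with 0 in both SMC lines, and 7 and 3 in non-SMC lines 1 and 2. Per strong peak listed, 28.5% of all gene windows had higher values in both non-SMC lines than in either SMC line.

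The highest *Pou2f3* region was non-SMC-only and lay 51.7 kb upstream of the gene. Its fold enrichments were 13.5 and 11.2 for non-SMC lines 1 and 2, at the 96.6th and 97.3th percentiles, with −log10 q of 43.1 and 20.6 and pileups of 53 and 26. Scaled to the background of SMC line 2, these pileups corresponded to 54.9 and 62.6, against a lowest listed pileup of 5 there. That they exceeded it was all but fixed by the limit for a strong peak. The part of depth in the missing peak was not tested. The start of *Oaf* was 22.2 kb away, nearer than that of *Pou2f3*. A region 90.2 kb upstream was strong in both non-SMC lines as well (8.10 and 9.48) and lay 10.3 kb from the start of *Trim29*, a gene of squamous and basal epithelium.

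The other strong regions of the *Pou2f3* window included 1 at the start of *Oaf*, 29.7 kb upstream, with fold enrichments of 5.63 and 7.99 in non-SMC lines 1 and 2 and a weak peak of 2.26 in SMC line 2. Non-SMC line 1 alone was strong 41.7 kb upstream, and at 3 places 112 to 135 kb downstream, inside introns of *Arhgef12*. Of the 61 regions, 5 (8.20%) were non-SMC-only, against 7.33% of all merged regions, and 2 (3.28%) were SMC-only, against 4.37%, so both shares were near the background. The SMC-only regions, 72.0 and 74.4 kb upstream, were weak, with fold enrichments of 2.73 and 3.24 in SMC line 1 and 3.66 and 3.48 in SMC line 2. Their −log10 q were 0.469 and 1.03 in SMC line 1 and 3.10 and 2.60 in SMC line 2.

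Motifs were then read in the strong regions of the 3 windows. Over the 3 windows, 14 regions were strong in non-SMC lines (1 or both) alone, and 9 of them (64.3%) had the AP-1 motif TGANTCA within 100 bp of the summit. They comprised 4 of 7 at *Neurod1* and 5 of 7 at *Pou2f3*. Of all regions of the genome with this pattern, 53.8% had the motif, so the share in the windows was near that of its pattern. None of the 9 regions strong in SMC line 2 alone, 5 at *Neurod1* and 4 at *Atoh1*, had it, against 8.15% of all such regions and 14.8% of all merged regions. AP-1 is the FOS and JUN family of factors.

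The 54.5 kb and 91.7 kb upstream regions of *Neurod1* and the start of *Oaf* were among the strong non-SMC regions without the AP-1 letters. The E-box CAGATG was found in 4 of the 14 (28.6%) and in 0 of the 9. Over all regions with these patterns the shares were 19.1% and 19.9%, and over all merged regions 18.5%. The E-box CAGCTG was found in 1 of the 14 (7.14%) and in 0 of the 9, against 14.5% and 17.3% of all regions with these patterns. The octamer was found in 0 of the 14 and 0 of the 9, against 1.01% and 2.03%. The TEAD motif was found in 2 of the 14 (14.3%) and 2 of the 9 (22.2%), the *Neurod1* promoter peak included. Over all regions with these 2 patterns the shares were 19.5% and 8.88%, and over all merged regions 12.6%. The 250 bp upstream of the *Neurod1*, *Pou2f3* and *Atoh1* TSSs had GC contents of 62.8%, 59.6% and 55.6% and 14, 7 and 14 CpGs, with medians of 54% and 8 over all promoters.

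**Figure D4:**
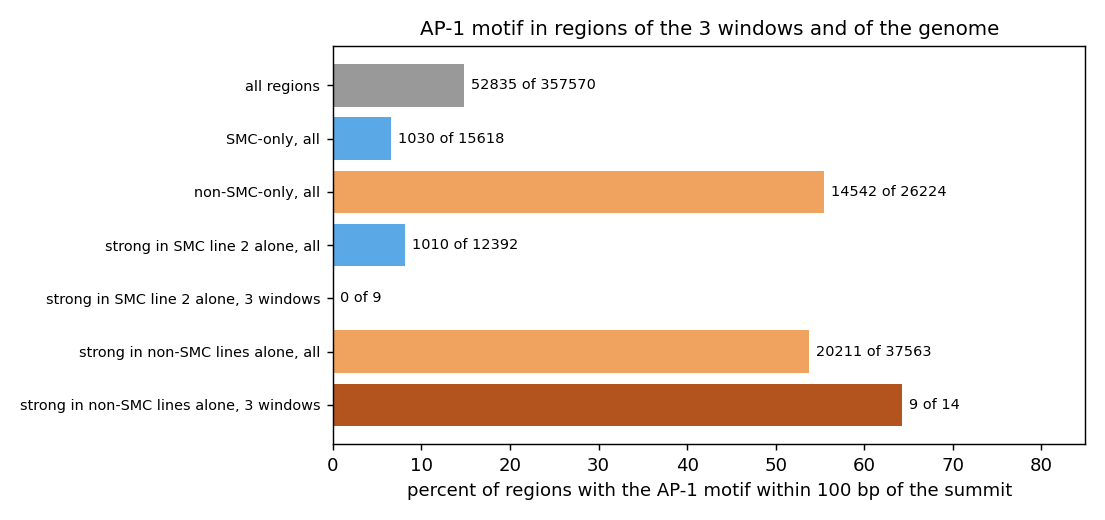
Percent of regions with the AP-1 motif within 100 bp of the summit (horizontal axis, from 0), for all merged regions of the genome and for the strong regions of the 3 windows, with the counts beside each bar. The motif is in 9 of 14 regions strong in non-SMC lines alone and in 0 of 9 strong in SMC line 2 alone.

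Related genes were read from lists that contain the members themselves. Of 23 proneural bHLH genes, 4 (17.4%) had an SMC-only promoter, against 3.08% of all promoters. They were *Neurog1* and *Neurog3*, which start neuronal and endocrine islet differentiation, *Atoh7*, a factor of retinal ganglion cells, and *Atoh1* itself. Of these, *Atoh7* had strong peaks in both SMC lines, *Atoh1* in SMC line 2, and the other 2 in neither. *Bhlhe22* was the 1 bHLH gene with a non-SMC-only promoter, against 2.45% of all promoters. Of the 23 bHLH promoters, 14 had no strong peak in any library, against 43.5% of all promoters.

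The other lists are read against the same shares, 3.08% SMC-only and 2.45% non-SMC-only. Of 14 POU genes, 0 had an SMC-only and 0 a non-SMC-only promoter, and 6 (42.9%) had a peak in all 4 libraries, against 48.7% of all promoters. Of 28 tuft cell genes with a matching symbol (30 were listed), 1 was SMC-only, *Trpm5*, the cation channel of taste and tuft cell signalling, and 0 were non-SMC-only. Of 13 genes named as ATOH1 targets none was SMC-only or non-SMC-only. Of 18 genes named as NEUROD1 targets 2 were SMC-only, *Ntrk2*, a neurotrophin receptor, and *Myt1l*, a neuronal zinc finger factor, and 0 were non-SMC-only. With strong peaks only, 1.63% of all promoters were SMC-only and 5.3% non-SMC-only. Then *Pou3f4* was SMC-only and *Pou3f1* non-SMC-only among the POU genes, and *Gfi1*, a zinc finger repressor, was SMC-only and *Myo7a*, a myosin of hair cells, non-SMC-only among the ATOH1 targets. Among the tuft cell genes *Kit*, a receptor tyrosine kinase, was SMC-only and *Sox9* and *Alox5ap* non-SMC-only. *Myt1l* was the 1 such NEUROD1 target, as SMC-only, and *Atoh7* the 1 such bHLH gene.

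**Figure D5:**
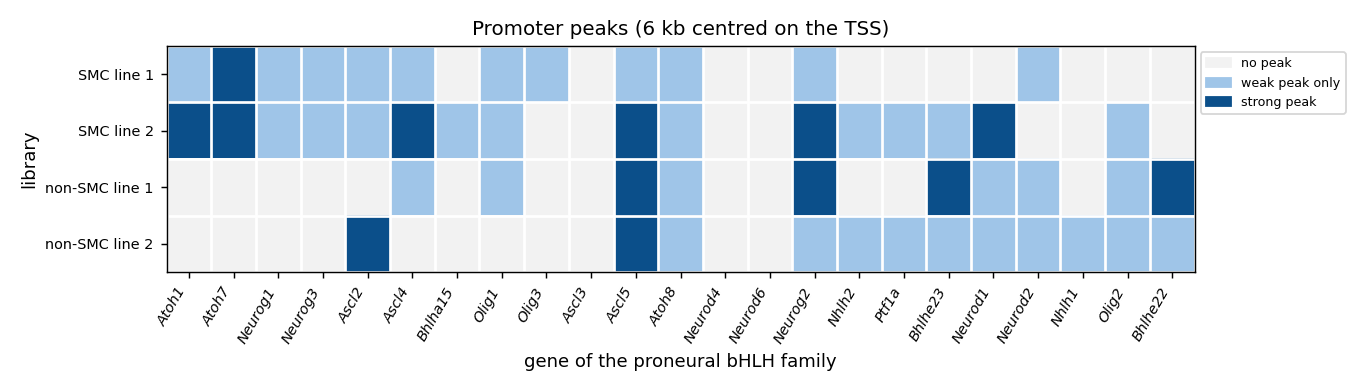
Promoter peaks of 23 proneural bHLH genes (columns) in each library (rows), as no peak, weak peaks only or at least 1 strong peak, ordered by the number of SMC minus non-SMC lines with a peak. *Atoh1* is among the 4 genes with peaks in both SMC lines alone, and *Neurod1* is strong in SMC line 2 alone.

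The genes most like each member had the same promoter pattern and the nearest peaks per 100000 in their windows, by Euclidean distance of log2(1 + peaks per 100000) over the 4 libraries. They were *Tm4sf1*, *Stxbp6* and *Cyp2d26* for *Neurod1* (distances 0.596 to 0.689, among 949 genes), *Pth1r*, *Hpn* and *Cxcl16* for *Pou2f3* (0.156 to 0.310, among 158) and *Aldh1a7*, *Dpy19l2* and *Nrsn1* for *Atoh1* (0.386 to 0.508, among 674). The distance is a description over 4 libraries.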

How the data were processed

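ATAC-seq peak lists of 2 SMC and 2 non-SMC lines were analyzed, 1 list per library. Per the labels and the study's methods, the authors mapped reads to mm10 with Bowtie2 2.3.4, removed duplicates and called peaks with MACS2 2.1.1 in each library, with settings not given in the sources used here. They deposited the fold enrichment (a ratio of summit pileup to local background), the −log10 p and the −log10 q of each peak, and a score that was not used. Read counts were not analysed here, and depth was judged only from the lowest background in each list. From the fold enrichment and p-value of a peak its pileup and background were computed, which gave no solution for 3 to 5 peaks per library; this step was tested on simulated peaks.

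Unplaced sequences were dropped, with 61 to 85 peaks per library. Genes and TSSs were those of GENCODE M21. Regions are the lists merged where peaks share at least 1 base. Motifs were searched in both orientations 100 bp to each side of a region's highest summit, and overlapping matches of different motifs were all counted. Sequences came from the RefSeq copy of GRCm38. The members, gene lists and motifs were chosen with earlier results of these data known, and the members were chosen by name. The text names promoter peaks, the highest SMC-only and non-SMC-only region of each window by mean percentile, protein-coding neighbours, and list genes with an SMC-only or non-SMC-only promoter; other named regions were chosen after their values were seen, and some items are not reported here. No test was made, since 2 libraries stood against 2. The alternatives were strong peaks (−log10 q of 5 or more), equal numbers of top peaks (91057), flanks of 50 or 200 kb, no promoters of other genes, expected peaks after thinning to 50% of the depth that the background of SMC line 1 implies, reciprocal overlap of 50%, other promoter definitions and each library left out. The work was done in Python 3.11.15 (scipy 1.17.1, pandas 2.3.3 and numpy 2.4.6) with samtools 1.23.1; overlaps were checked with bedtools 2.31.1.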

Additional observations from a re-analysis of the deposited data

Results flagged for a closer look

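Lines of the same number moved in opposite directions in 2 windows, and these differences were not tested. In the *Neurod1* window, SMC minus non-SMC was −11.9 peaks per 100000 for lines 1 and 1.59 for lines 2, a gap of 13.4. In the *Pou2f3* window it was 3.37 for lines 1 and −1.25 for lines 2, a gap of −4.61. SMC line 1, the library with the fewest peaks and the lowest background, was the lowest of the 4 at *Neurod1* and the highest at *Pou2f3*. The part of depth in this was not tested. Groups of 2 lines were too small for a search for outlying samples.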

How the results depend on the processing

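SMC minus non-SMC peaks per 100000 are given first. At *Neurod1* (−5.13) it ranged from −10.4 to 0.167 with a library left out, and turned to 0.167 without SMC line 1. It was −0.00576 with 50 kb flanks, −8.19 with 200 kb flanks and −7.65 with strong peaks. At *Pou2f3* (1.06) it turned to −13.9 with strong peaks, −1.32 with 50 kb flanks, −0.0512 without promoters of other genes and −1.68 without SMC line 1 (range −1.68 to 3.80), and was 8.11 with 200 kb flanks. At *Atoh1* (2.15) it was 7.60 with strong peaks, 4.81 with 200 kb flanks and 4.13 after thinning, and 1.00 to 3.31 with a library left out. As a replicate block, the means within lines of the same number were −5.13, 1.06 and 2.15, the same by construction. Whether same-numbered lines share a tumor is not given in the sources used here.

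SMC-only regions at *Neurod1* (0) were 1 with 200 kb flanks and 0 to 14 with a library left out. At *Pou2f3* (2) they were 0 with strong peaks, 0 with 50 kb flanks, 1.13 after thinning, 1 with reciprocal overlap and 2 to 18 with a library left out. At *Atoh1* (1) they were 0 with strong peaks and 1 to 9 with a library left out. Non-SMC-only regions at *Neurod1* (5) were 0 with 50 kb flanks, 12 with 200 kb flanks and 5 to 11 with a library left out. At *Pou2f3* (5) they were 3 with strong peaks, 3 with 50 kb flanks and 6 to 15 with a library left out, and at *Atoh1* (0) they were 0 to 4. Leaving out a library leaves its type with 1 line, so such counts rise by construction.

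SMC minus non-SMC lines with a promoter peak turned from −1 to 1 at *Neurod1* with a 2 kb promoter and with strong peaks, moved from 0 to −1 at *Pou2f3* with 2 kb, and from 2 to 1 at *Atoh1* with strong peaks. The cause of other changes was not tested.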
